A study of Mus musculus with 2 samples.

Results

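Chromatin accessibility at cytokine and chemokine genes and the genes of their receptors was examined with ATAC-seq. In this assay a transposase cuts and tags open DNA, and reads collect where chromatin is accessible. The cells were primary murine cardiac fibroblasts, the collagen-producing stromal cells of the heart. They had received scrambled siRNA (SCR) or siRNA to Piezo2 (siPiezo2), and both conditions were then given TGF-β at 5 ng/ml for 24 h, so that no library without TGF-β was compared here. There was 1 library per condition. Whether cells of several hearts were pooled is not given in the sources used here, and the description of the series names a Cre-mediated Tet3 knockout in place of siPiezo2, a discrepancy that was not settled. Genes were included when their symbol began with Ccl, Cxcl, Ccr, Cxcr or Il and a number, began with Tnfsf or Tnfrsf, or was Tnf, Lif, Lifr, Osm, Osmr, Csf1, Csf2 or Csf3. The peak table held 89 such genes with 204 peaks, out of 16934 genes with an assigned peak and 43864 assigned peaks of 63316 in all.

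Chemokines are small secreted proteins that steer leukocytes along gradients, and they act through G-protein-coupled receptors. Interleukins of the IL-6 family signal through the shared chain gp130 and the JAK-STAT pathway, whereas ligands of the IL-1, IL-17 and TNF families converge on NF-κB and MAP kinases. Cardiac fibroblasts make several of these proteins after injury, among them IL-6, CCL2 and the macrophage growth factor CSF1, and they carry receptors for many of them. An open promoter or intronic element shows that DNA at the gene is accessible and is not a measure of its mRNA.

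The value given for each gene is its normalised read density, summed over the peaks assigned to the gene, in each library. The log2 ratio is siPiezo2 over SCR after adding 1 to both densities. The densities come from reads in windows of 2000 bp, whose numbers could be recovered, and the 95% interval of each ratio is an exact binomial (Clopper-Pearson) interval from those reads. It covers counting error only. Peaks called in both libraries varied 2.15 times as much as counting error by their median deviation, so a widened interval that includes this extra variance is given as well. By the mean deviation the variance was 4.75 times counting error. With 1 library per condition no test of the condition was possible, and no p-value is given.

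The windows of all peaks held 4615335 reads in SCR and 2754046 in siPiezo2, and the window of a median member peak held 60.5 and 37 reads. Of the fibroblast markers looked for, 7 of 8 had a peak, in each case within 1 kb of a TSS, with Lum lacking a row, and together they carried densities of 986 (SCR) and 905 (siPiezo2). Of the leukocyte markers, 4 of 8 had a peak (481 and 455), while Adgre1, Cd68, Lyz2 and Fcgr1 had none. T cell markers numbered 2 of 4 (41.3 and 57.2), endothelial markers 4 of 5 (359 and 382), cardiomyocyte markers 3 of 5 (146 and 152) and mural cell markers 3 of 4 (413 and 340, or 287 and 284 without Rgs5). In a bulk library, fewer cells of a type and lower accessibility per cell cannot be told apart. Piezo2 itself had 14 peaks with densities that added up to 334 (SCR) and 242 (siPiezo2), which does not measure its mRNA.

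Most of the 89 genes differed little between the libraries. On the deposited scaling, those that stood apart were nearly all less accessible in siPiezo2. All members together held 6311 in SCR against 5610 in siPiezo2, and their pooled log2 ratio was -0.17 (interval -0.21 to -0.13, widened -0.23 to -0.11). The pooled ratio of all genes was -0.10, and the difference from the members was not tested. A pooled ratio weighs genes by density, and its intervals here leave out the spread between genes. The members densest in SCR (Csf1, Tnfrsf1b, Il1r1 and Il34) stood at -0.65, 0.08, -0.18 and -0.81. The median member stood at -0.11, beside -0.09 for all genes, and 59 of 89 members (66.3%) were below 0, beside 62.6% of all genes. Under median-of-ratios scaling the typical gene moved from -0.09 to 0.04, and the members' median moved with it to 0.02, so differences of single genes are relative to that shift.

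Past 1.5-fold lower in siPiezo2 were 11 members (12.4%), where 6.60% of all genes were that low, and past 1.5-fold higher were 0 members, where 1.54% of all genes were that high. Under median-of-ratios scaling the same counts were 7 lower and 3 higher, where 3.67% and 3.83% of all genes were. With recovered reads brought to the same total they were 9 and 3, where 3.24% and 4.32% of all genes were. Intervals wholly below 0 were found for 18 members (20.2%, against 15.8% of all genes), and an interval wholly above 0 for 1 member (1.12%, against 4.68%). With the widened interval, 7 members (7.87%) remained below 0, where the share of all genes was 6.72%, and 0 were above, where it was 1.37%. These 7 were Csf1, Il34, Tnfrsf11b, Il1rl1, Tnfsf8, Il17c and Il21r. Neighbouring windows that overlap share reads, which are then counted more than once. On separate windows alone, 16 of 89 intervals lay below 0 (14.2% of all genes did) and 0 above (4.14%), with Il4ra and Il17rd no longer below and Tnfrsf12a no longer above, and 6 widened intervals lay below 0 (6.74%, against 5.50%), without Tnfrsf11b. Widened by the mean deviation instead, 2 intervals lay below 0, those of Csf1 and Il34 (1.84% of all genes did), and 0 above. At the level of peaks, 28 of 204 (13.7%) were past 1.5-fold lower, close to the 12.8% of all assigned peaks, and 3 (1.47%) were past 1.5-fold higher, where 2.82% of all were.

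**Figure D1:**
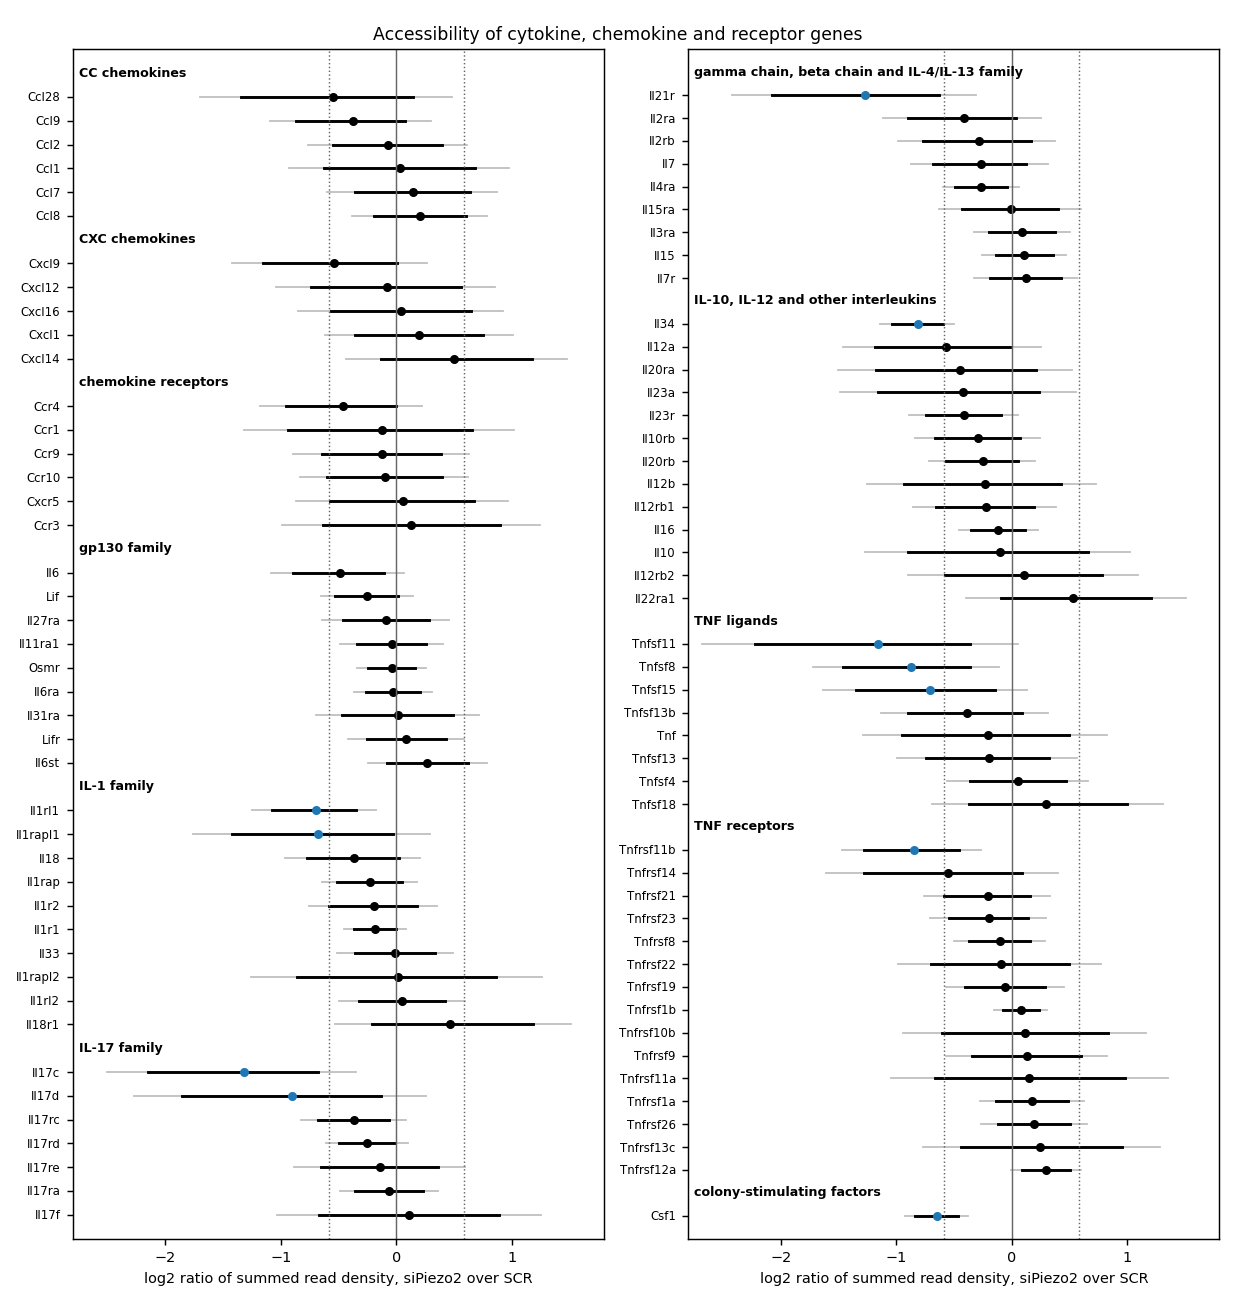
Log2 ratio of summed read density, siPiezo2 over SCR, for the 89 genes by role. Points are the values of 1 library per condition, blue where past 1.5-fold lower, black bars are 95% intervals from counting error, grey bars are the widened intervals and dotted lines mark 1.5-fold. The 11 blue points lie to the left of the lower line and no point lies beyond the upper line.

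**Figure D2:**
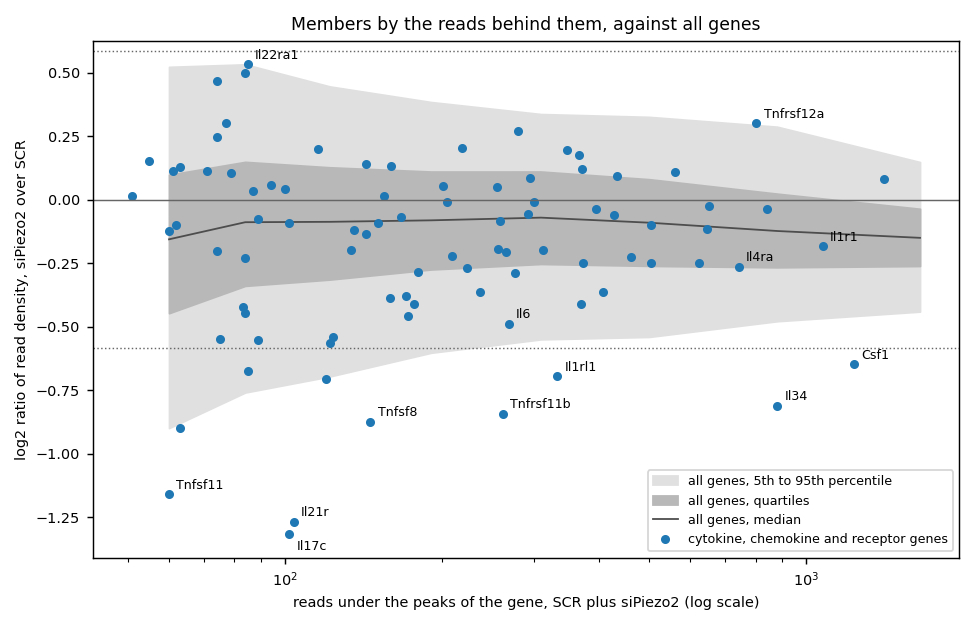
Log2 ratio of each gene (vertical axis) against the reads under its peaks in both libraries together (horizontal axis, log scale). Blue points are the 89 genes, grey bands are the quartiles and the 5th to 95th percentiles of all genes with a similar number of reads, and dotted lines mark 1.5-fold. Csf1 and Il34 rest on the most reads among the genes past the lower line, and Il17c, Il21r and Tnfsf11 on few.

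The largest body of reads among the lower genes lay at the ligands of the CSF1 receptor, the growth factor receptor that sustains macrophages. Csf1 (ENSMUSG00000014599, chromosome 3), the colony-stimulating factor for macrophages, had a density of 344 in SCR (910 reads) and 220 in siPiezo2 (327 reads), which gave a ratio of -0.65 (interval -0.84 to -0.47). All 4 of its peaks were lower in siPiezo2, and they were lower to unequal degrees. The strongest in SCR lay downstream of the gene at chr3:107646829-107647582 and held a density of 119 in SCR and 44.6 in siPiezo2 (-1.39, widened interval -2.01 to -0.84). The peak over the 5′ UTR, 76 bp from the start site, held 60.1 and 49.4 (-0.28, interval -0.70 to 0.12), so that at the start of the gene the libraries were not separated at this depth. The peaks in introns 8 and 5 stood at -0.32 and -0.52. Csf1 was short of 1.5-fold with densities at the same total (-0.56) and under median-of-ratios scaling (-0.51), and over the peaks called in both libraries, which leave out the downstream and the intron 5 peak, its ratio was -0.31.

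Il34 (ENSMUSG00000031750, chromosome 8), which encodes the other ligand of the CSF1 receptor, had a density of 262 in SCR (645 reads) and 149 in siPiezo2 (235 reads), with a ratio of -0.81 (interval -1.04 to -0.60). Its 7 peaks all lay in intron 1, and 6 of them were lower in siPiezo2. The strongest, at chr8:111515525-111516127, went from 94.7 in SCR to 41.4 in siPiezo2 (-1.17, widened interval -1.82 to -0.60). Its neighbour at chr8:111521314-111521685 held 43.7 and 17.8 (-1.25, widened -2.26 to -0.40). The exception, at the end of the row of peaks, held 24.3 and 25.5 (0.07). The strongest peak was the 1 Il34 peak called in both libraries, so that on such peaks alone the gene stood at -1.17. None of the 7 was nearest to the start site of Il34 itself, since the nearest starts belonged to the predicted genes Gm15894 and Gm15895. The receptor gene Csf1r, a macrophage gene outside the rule, held 82.0 and 68.5 (-0.25, interval -0.61 to 0.09), and Csf2 and Csf3 had no peak assigned to them.

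**Figure D3:**
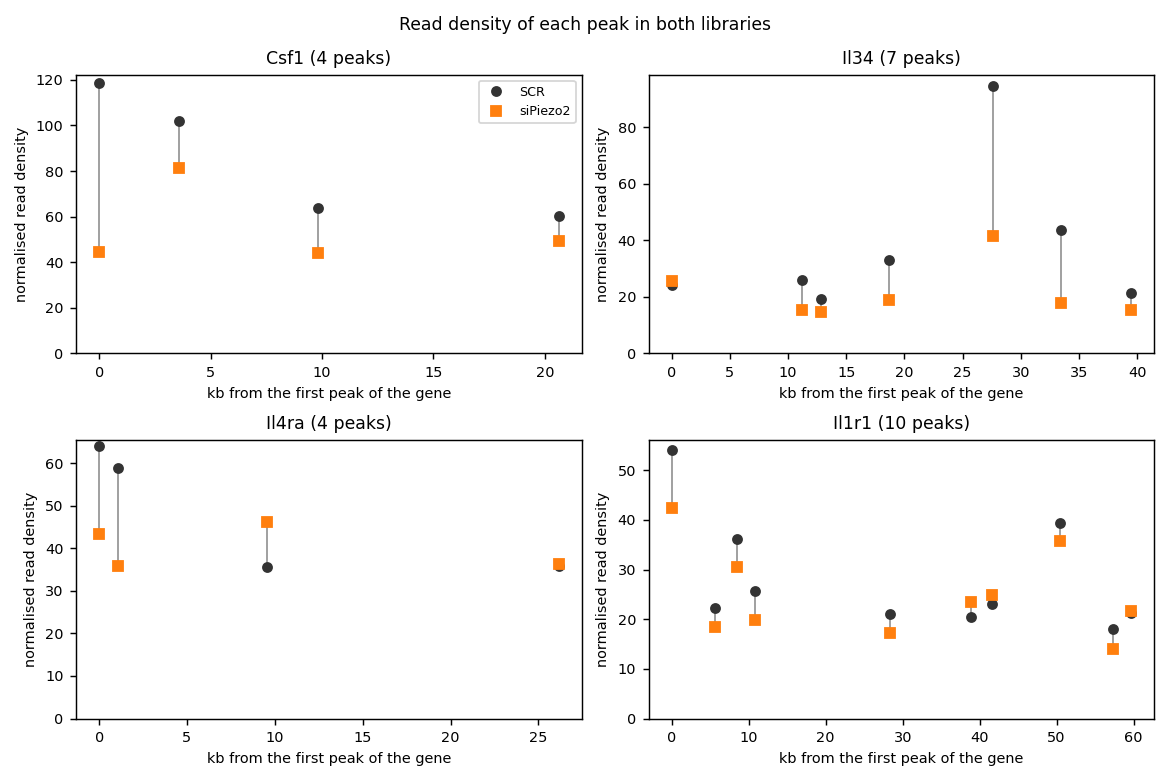
Normalised read density of each peak (vertical axis, from 0) by its distance in kb from the first peak of the gene (horizontal axis), for Csf1, Il34, Il4ra and Il1r1. Circles are SCR and squares siPiezo2, 1 library each. All 4 Csf1 peaks and 6 of 7 Il34 peaks are lower in siPiezo2, whereas Il4ra is lower only at its 2 promoter peaks.

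In the TNF superfamily, the 8 ligand genes had a median of -0.30 with 6 below 0, and the 15 receptor genes a median of 0.08 with 7 below 0, where 62.6% of all genes were below 0. The difference between ligands and receptors was not tested. The lowest receptor gene was Tnfrsf11b (ENSMUSG00000063727, chromosome 15), which encodes osteoprotegerin, the secreted decoy receptor for RANKL. It had a density of 79.2 in SCR and 43.7 in siPiezo2 (193 and 69 reads, -0.84, widened interval -1.47 to -0.26). Its promoter peak, at chr15:54141617-54142250 and 53 bp from the start site, went from 43.5 to 24.2 (-0.82), and its peak in intron 1 from 35.7 to 19.5 (-0.84). The windows of these peaks overlap, so they share reads, and on the intron 1 window alone the widened interval was -1.81 to 0.02. Tnfsf11, which encodes RANKL, held 20.5 and 8.62 (-1.16), a value that rests on 46 and 14 reads at 1 intronic peak and had a widened interval of -2.68 to 0.05.

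Tnfsf8, the ligand of CD30, had a density of 45.8 in SCR and 24.5 in siPiezo2 (-0.87, widened interval -1.72 to -0.11). Nearly all of this lay at its intron 1 peak (33.1 and 13.1), while its other peak differed little (12.7 and 11.4). Tnfsf15, the neighbouring gene and the ligand of death receptor DR3, held 35.5 and 21.4 at a 3′ UTR peak (-0.70, interval -1.35 to -0.14), and was short of 1.5-fold under median-of-ratios scaling (-0.57) and on reads at the same total (-0.58). Tnf held only 19.9 and 17.1 (-0.20, interval -0.95 to 0.49). The survival ligand Tnfsf13b (BAFF) held 44.7 and 33.9, and the costimulatory ligand Tnfsf4 (OX40L) held 50.2 and 52.2. Both intervals included 0.

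Genes of the TNF receptors themselves differed little between the libraries. Tnfrsf1a, the receptor found on most cells, held 85.4 in SCR and 96.7 in siPiezo2 (0.18, interval -0.13 to 0.49). Tnfrsf1b, the second TNF receptor, had 8 peaks with 337 and 356 (0.08, interval -0.08 to 0.24), and 6 of the 8 were above 0, 3 of these in overlapping windows. A distal peak nearest to its start site stood at -1.37. Tnfrsf8, the receptor CD30 and neighbour of Tnfrsf1b, held 128 and 119 (-0.10). Tnfrsf12a (ENSMUSG00000023905, chromosome 17), the receptor Fn14 for TWEAK, was the member with an interval wholly above 0. It had 179 in SCR and 221 in siPiezo2 (0.30, interval 0.09 to 0.51), and each of its 3 peaks was above 0, from 0.19 to 0.39, although their windows overlap. The widened interval reached from -0.0023 to 0.60, and on the 3′ UTR window alone, the one kept as separate, the ratio was 0.19 (interval -0.14 to 0.52), so that the interval call was lost.

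Genes of the gp130 family, most receptors of which share the chain encoded by Il6st, ran from -0.49 at Il6 to 0.27 at Il6st, and Il6 was the one whose interval lay below 0. Il6 (ENSMUSG00000025746, chromosome 5) had a single peak across its start site, at chr5:30217750-30218586, with a density of 73.1 in SCR (191 reads) and 51.9 in siPiezo2 (78 reads). Its ratio of -0.49 had an interval of -0.90 to -0.11, and the widened interval of -1.08 to 0.07 included 0. Lif, a related ligand, held 132 and 111 (-0.25, interval -0.53 to 0.02). All 7 receptor genes had intervals that included 0. Il6st held 64.1 in SCR and 77.5 in siPiezo2 (0.27, interval -0.08 to 0.63), Il6ra 162 and 159 (-0.02), Il11ra1 97.7 and 95.2 (-0.04), Osmr 210 and 205 (-0.04) and Lifr 73.0 and 77.6 (0.09), with Il27ra at -0.08 and Il31ra at 0.02. Within Osmr, 3 assigned peaks were below 0 and 3 above, and 3 distal peaks nearest to it were below 0. Il11 and Osm, a fibrogenic interleukin and the ligand of OSMR, had no peak assigned to them.

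In the IL-1 family the value that stood apart was that of Il1rl1 (ENSMUSG00000026069, chromosome 1), which encodes ST2, the receptor of IL-33. Its single peak, in intron 6 at chr1:40483836-40484391, held 93.4 in SCR (248 reads) and 57.3 in siPiezo2 (85 reads), a ratio of -0.70 (widened interval -1.25 to -0.18), or -0.56 under median-of-ratios scaling, which is short of 1.5-fold. Il1rl1 lies in a row of 5 receptor genes that spans 384 kb. The row holds 17 peaks, of which 11 were below 0, where 62.6% of all assigned peaks were. The ratios of the neighbours of Il1rl1 were nearer to 0 or above it, a contrast that was not tested. Il1r1, the signalling receptor of IL-1, had 10 peaks with 282 and 248 (-0.18, interval -0.37 to -0.0026), 7 of them below 0. The decoy receptor Il1r2 held 68.0 and 59.3 (-0.19), the IL-36 receptor Il1rl2 62.3 and 64.6 (0.05), and the IL-18 receptor Il18r1 16.0 and 22.5 (0.47, interval -0.21 to 1.19). Il33, the ligand of ST2, held 75.4 and 74.96 (-0.01), and the shared accessory receptor Il1rap held 123 and 105 (-0.23, interval -0.51 to 0.05). Il1rapl1 was also past 1.5-fold lower, at 26.6 and 16.3 (-0.68), on 58 and 27 reads. Il1b had no peak assigned to it.

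Of the 7 IL-17 family genes, 6 were below 0 (median -0.25), where 62.6% of all genes were. Il17c, an epithelial cytokine, had the lowest ratio of all 89 genes, with 34.3 in SCR (81 reads) and 13.2 in siPiezo2 (21 reads) at 1 peak downstream of the gene (-1.32, widened interval -2.50 to -0.34). Il17d held 20.3 and 10.4 (-0.90) on 46 and 17 reads. Receptor genes differed less. Il17rc went from 109 to 84.3 (-0.36, interval -0.68 to -0.06), with both peaks below 0, and Il17rd, an inhibitory receptor that also restrains FGF signalling, from 165 to 138 (-0.25, interval -0.50 to -0.01, or -0.48 to 0.09 on separate windows). Il17ra, the common receptor chain, held 106 and 102 (-0.06).

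Among interleukins of the gamma chain and IL-4 group, Il21r had a density of 34.6 in SCR (82 reads) and 13.8 in siPiezo2 (22 reads) at 1 peak in its 3′ UTR (-1.27, widened interval -2.43 to -0.31). That peak was nearest to the start site of another gene, Gtf3c1. Il4ra (ENSMUSG00000030748, chromosome 7), the receptor chain shared by IL-4 and IL-13, was lower at its promoter and was not separated between the libraries elsewhere. Its promoter peak at chr7:125150025-125150592 held 64.1 in SCR and 43.4 in siPiezo2 (-0.55, widened interval -1.20 to 0.05). The one at chr7:125151117-125151459 held 59.0 and 35.8 (-0.70, widened interval -1.41 to -0.05). Their windows overlap, and on the first, the one kept as separate, the widened interval included 0. A peak in intron 1 held 35.5 and 46.2 (0.37, interval -0.09 to 0.84), and one in the 3′ UTR held 35.9 and 36.3. The whole gene was therefore only at -0.26 (interval -0.49 to -0.04), and without the second promoter window, which overlaps the first, at -0.11 (interval -0.37 to 0.15). Il3ra, a receptor of the beta chain group, held 103 and 110 (0.09).

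Il15, a cytokine that maintains NK and memory T cells, had peaks on both sides of 0. An intron 1 peak at chr8:83111130-83111432 held 19.1 in SCR and 43.0 in siPiezo2 (1.13, with a widened interval that began at 0.35), the highest ratio of all 204 member peaks. The peaks in its 5′ UTR held 32.6 and 25.2, and 32.6 and 23.9, in overlapping windows. Summed over 6 peaks, Il15 stood at 136 and 147 (0.11, interval -0.14 to 0.36). In the remaining interleukin group, 11 of 13 genes were below 0 (median -0.25), where 62.6% of all genes were. Il23r held 101 and 76.1 (-0.41, interval -0.74 to -0.10), Il20rb 101 and 84.5 (-0.25) and Il16 166 and 154 (-0.11). Il12a was the gene just short of 1.5-fold, at 35.0 and 23.3 (-0.57), and Il22ra1 had the highest gene ratio, at 17.9 and 26.4 (0.53, interval -0.09 to 1.21).

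At the peaks assigned to them, chemokine genes showed medians close to 0. The 6 CC chemokine genes had a median of -0.02 with 3 on each side of 0, and the 5 CXC chemokine genes a median of 0.04. Ccl2, the main attractant of monocytes, held 41.8 in SCR and 39.9 in siPiezo2 at its promoter (-0.07, interval -0.55 to 0.40). Its neighbours Ccl7 and Ccl8, which attract the same cells, held 33.9 and 37.6 (0.14) and 51.5 and 59.4 (0.20). Of 5 assigned peaks in this CC chemokine cluster, 1 was below 0, whereas 9 of 11 distal intergenic peaks nearest to Ccl1, Ccl2, Ccl8 or Ccl11 were below 0 (median -0.33), where 66.3% of all distal peaks were. The 2 cluster peaks above 0 were nearest to Ccl11, and the windows of the Ccl2 peaks at -3196 and -2412 bp overlap. Over 18 CC and CXC chemokine genes together, 23 of 38 distal peaks were below 0. Their median was -0.10, beside -0.18 for all distal peaks. The lowest distal peak near Ccl2, 3204 bp from its start site, held 48.1 and 30.2 (-0.65, interval -1.19 to -0.17), and the one near Ccl8 held 34.4 and 20.8 (-0.70, interval -1.36 to -0.13). Ccl9 held 47.7 and 36.4 (-0.38, interval -0.87 to 0.08). Cxcl1, a neutrophil attractant, held 27.2 and 31.4 at its promoter (0.20, interval -0.36 to 0.76). Cxcl12, the ligand of CXCR4, held 22.9 and 21.6 at its 3′ UTR (-0.08), Cxcl16 24.7 and 25.5 (0.04) and Cxcl9, which is induced by interferon-γ, 35.4 and 23.98 (-0.54, interval -1.15 to 0.0065). The 6 chemokine receptor genes had a median of -0.11. Ccr4 was the lowest of them, at 48.8 and 35.3 (-0.46, interval -0.95 to 0.0029). Ccr1 held 15.9 and 14.5 (-0.12), Ccr9 35.8 and 32.9 (-0.12) and Ccr10 38.2 and 35.8 (-0.09). Ccl5, Cxcl2, Cxcl5, Cxcl10 and Cxcr4 had no peak assigned to them. All of these but Cxcl10 were the nearest gene to 1 distal peak each, among them Ccl5 with 41.6 and 29.4 (-0.49, interval -1.04 to 0.01).

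Set side by side, the 35 ligand genes had a median of -0.23 with 7 past 1.5-fold lower, and the 54 receptor genes a median of -0.09 with 4 past it, where 6.60% of all genes were. This difference was not tested. By the number of peaks, the 39 genes with 1 peak had a median of -0.09 and 56.4% below 0 (57.1% of all such genes), the 34 with 2 or 3 peaks -0.17 and 73.5% (63.3%), and the 16 with 4 or more -0.11, with 12 below 0 (76.2%).

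The position of a peak in its gene went with its ratio. The 39 member peaks in promoters within 1 kb of a start site had a median of 0.11, and 14 of them (35.9%) were below 0. The corresponding median over 9251 promoter peaks of all genes was -0.03, with 53.7% below 0. Peaks in first introns stood at -0.16 for members and -0.15 for all genes, and later introns at -0.15 and -0.17. The 21 member peaks in 5′ UTRs had a median of -0.16, against -0.04 over all genes, so that the medians of members' promoter and 5′ UTR peaks lay on opposite sides of 0. By distance alone, the 67 member peaks within 1 kb of a start site had a median of 0.04 (all genes -0.04) and the 137 beyond it a median of -0.18 (all genes -0.17). The call of the peak went with the ratio too. The 64 member peaks called in both libraries had a median of -0.02, the 135 called in SCR only a median of -0.18 and the 5 called in siPiezo2 only a median of 0.35, as is built into such a split.

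**Figure D4:**
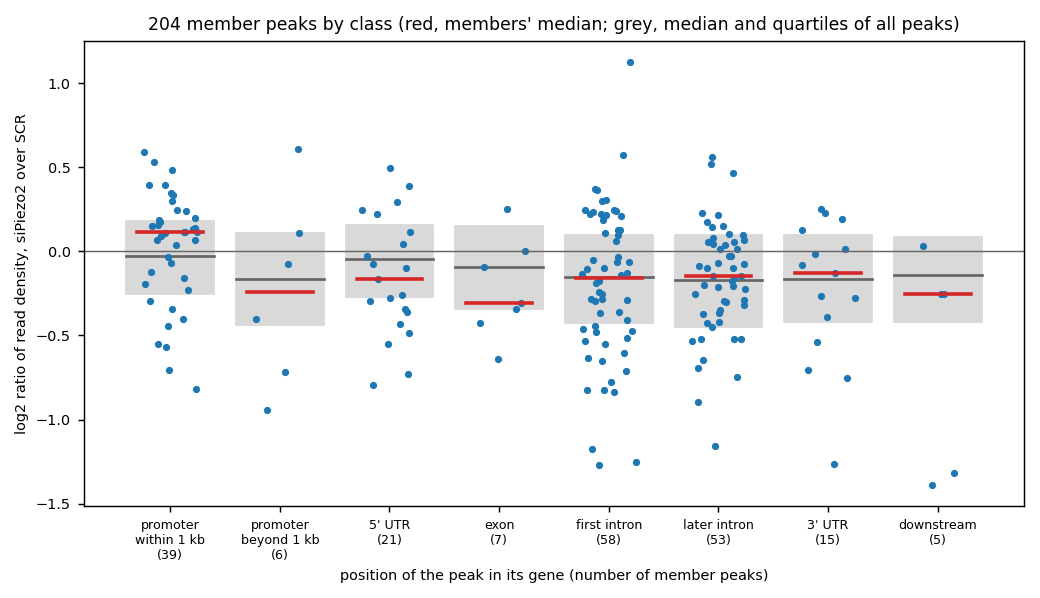
Log2 ratio of the 204 member peaks (vertical axis) by position in the gene (horizontal axis, with the number of member peaks). Points are peaks, red lines the members' medians, and grey boxes and lines the quartiles and medians of all assigned peaks in the class. Members' promoter peaks have a median of 0.11, above the -0.03 of all promoter peaks, while their intronic peaks lie close to the grey lines.

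Promoter sequences are shown for 5 genes whose start-site peaks bear on the values above, namely Csf1, Il6, Il4ra, Tnfrsf12a and Il6st, chosen after their values were seen. Of their start-site peaks, those of Il6 (-0.49) and Il4ra (-0.70) had intervals below 0, whereas the intervals at Csf1 (-0.28), Il6st (0.39) and the nearest Tnfrsf12a peak (0.39) included 0. They run from 250 bases before to 50 after the start and come from RefSeq (GRCm38.p6, plus strand of the gene), and capitals mark matches to the NF-κB letters GGGNNTTTC or the AP-1 letters TGANTCA on either strand.
Csf1: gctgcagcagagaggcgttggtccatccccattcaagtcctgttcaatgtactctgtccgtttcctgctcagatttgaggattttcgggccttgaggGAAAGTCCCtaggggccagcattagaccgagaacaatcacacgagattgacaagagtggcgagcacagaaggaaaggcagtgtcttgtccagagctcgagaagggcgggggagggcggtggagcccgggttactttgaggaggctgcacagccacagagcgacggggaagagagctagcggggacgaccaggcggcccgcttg
Il6: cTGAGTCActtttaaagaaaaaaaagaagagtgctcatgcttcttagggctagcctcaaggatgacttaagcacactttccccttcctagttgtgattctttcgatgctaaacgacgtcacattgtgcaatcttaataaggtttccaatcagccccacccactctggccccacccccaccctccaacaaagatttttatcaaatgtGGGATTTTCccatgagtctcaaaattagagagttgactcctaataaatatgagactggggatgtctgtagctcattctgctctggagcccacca
Il4ra: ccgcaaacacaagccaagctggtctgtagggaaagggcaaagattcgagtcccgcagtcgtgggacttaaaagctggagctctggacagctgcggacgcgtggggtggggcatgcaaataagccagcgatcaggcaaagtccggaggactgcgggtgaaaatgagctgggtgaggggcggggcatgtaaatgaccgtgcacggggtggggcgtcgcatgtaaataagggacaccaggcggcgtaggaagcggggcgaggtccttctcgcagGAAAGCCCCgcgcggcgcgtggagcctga
Tnfrsf12a: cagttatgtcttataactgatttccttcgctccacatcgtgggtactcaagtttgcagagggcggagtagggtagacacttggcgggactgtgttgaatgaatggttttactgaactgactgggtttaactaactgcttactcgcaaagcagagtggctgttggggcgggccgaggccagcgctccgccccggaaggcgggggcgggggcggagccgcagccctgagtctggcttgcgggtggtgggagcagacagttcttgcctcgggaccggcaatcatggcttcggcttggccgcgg
Il6st: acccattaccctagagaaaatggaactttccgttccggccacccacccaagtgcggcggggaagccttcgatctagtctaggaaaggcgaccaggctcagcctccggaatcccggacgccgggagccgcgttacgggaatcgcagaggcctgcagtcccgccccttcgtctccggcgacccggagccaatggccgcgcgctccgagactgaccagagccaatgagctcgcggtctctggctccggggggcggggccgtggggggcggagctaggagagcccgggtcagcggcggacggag
The Csf1, Il6 and Il4ra windows each held 1 NF-κB match, at -153, -44 and 22 relative to the start, and Il6 also held an AP-1 match at -249. The windows of Tnfrsf12a and Il6st held neither. Genes with NF-κB letters had start-site peaks on both sides of 0. Cxcl1 and Tnfrsf9 windows also held the letters, with promoter peaks at 0.20 and 0.13. So did those of Il17rc and Il18, with 5′ UTR peaks at -0.34 for Il17rc and at -0.79 and -0.03 for Il18. An Il16 window held them too, but its promoter peak (0.59) lay at -635 bp, farther out than the 250 bases searched. Tnfrsf11b had no entry. None of the 5 held the STAT letters TTCNNNGAA or the TEAD letters GGAATG. RefSeq promoters were matched for 69 of the 89 genes, with 83 windows. NF-κB letters were in 14.5% of these windows and in 4.36% of 32841 windows of all genes, and AP-1 letters in 20.5% and 7.81%. STAT letters were in 13.3% and 8.30%, and TEAD letters in 14.5% and 14.7%. A match describes the letters and not a bound site.

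Downstream of these receptors, genes of the JAK-STAT and NF-κB pathways had medians slightly below the -0.09 of all genes. Of 25 JAK-STAT genes listed, 24 had a peak, their median was -0.19 and 19 were below 0, where 62.6% of all genes were. Intervals were wholly below 0 for 5 of them, where 15.8% of all genes had such an interval, and above for 0. Stat5b, which transmits signals of growth factors and IL-2, had 136 in SCR and 92.3 in siPiezo2 (-0.56, widened interval -0.99 to -0.14), and Pias4, a SUMO ligase that restrains STAT proteins, had 118 and 77.4 (-0.60, widened -1.07 to -0.16). Stat4, Socs1 and Socs7 were the other three, from -0.65 to -0.39. Stat3, the main effector of gp130, held 166 and 176 (0.08), and its feedback inhibitor Socs3 76.7 and 93.1 (0.28, interval -0.04 to 0.60).

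Of 38 NF-κB pathway genes, 37 had a peak, with a median of -0.12 and 25 below 0, where 62.6% of all genes were. Intervals were wholly below 0 for 9 of the 37 and above for 0, where 15.8% and 4.68% of all genes had such intervals. Traf4, an adaptor of the TRAF family, held 84.0 and 52.2 (-0.68, widened interval -1.25 to -0.14), Birc3, a ubiquitin ligase at TNF receptors, 55.4 and 34.2 (-0.68), and Nfkbia, the NF-κB inhibitor and target IκBα, 100.2 and 73.8 (-0.44, interval -0.77 to -0.12). The remaining 6 were Relb, Ikbkg, Tbk1, Traf2, Traf5 and Tab1. Nfkb1, which encodes the p50 precursor, held 280 and 256 (-0.13, interval -0.31 to 0.05). Of 34 other cytokine and receptor genes outside the naming rule, 20 had a peak and their median was -0.16. Here the receptor genes Csf2ra, the GM-CSF receptor, and Crlf2, the TSLP receptor, had the highest values, at 50.9 and 77.6 (0.60, widened interval 0.06 to 1.15) and 142 and 199 (0.49, widened 0.16 to 0.82). The lowest was Ackr4, a scavenging chemokine receptor, at 26.5 and 14.9 (-0.79).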

How the data were processed

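Per the labels, methods and legend, cardiac fibroblasts with SCR or siPiezo2 and TGF-β were profiled by ATAC-seq, 1 library per condition. Submitters' notes name BWA 0.7.12 and mm10, and the methods name Picard and MACS2. The methods also describe another kit and minced tissue, unlike the labels. The authors deposited 1 table with 2 signal columns, read densities per peak after a linear fit between the libraries. Its other columns (log2 ratios and p-values of the authors' comparison) were not used. Only 2.88% of 14919 genes started within 1 kb of their start in GRCm38, so peak positions, given as deposited, are not those of mm10, and no genome of their build was used here.

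Densities were summed per gene, and log2 ratios used a pseudocount of 1. Intervals are of the ratio without pseudocount. Whole reads were recovered from the 2 density columns (100% whole within 0.02 reads), and 1 read per window, assumed to be added by the normalisation, was subtracted. Recovery was tested on simulated data made with that same added read, so the subtraction itself was not tested. Windows of 17 member peaks overlap a neighbour's, and 26 member peaks lie nearest to another gene's start. Genes named were members past 1.5-fold with at least 100 reads, the 3 densest per role group and a list by role in heart fibroblasts. Others were named after their values were seen, namely Tnfsf11, Il17d, Il1rapl1, Il12a, Il22ra1, Il23r, Il1r2, Il1rl2, Il18, Il18r1, Il27ra, Il31ra, Ccr1, Tnfrsf9, Tnfsf18 and the pathway genes. Members and lists were chosen with earlier results of these data known. Alternatives changed the pseudocount (0.1), fold (2), scaling and peaks used, and the widened intervals, the intervals on separate windows and distal peaks were added after seeing the data. Total reads and the reads of some genes are given in the report. Tools were scipy 1.17.1, pandas 2.3.3, numpy 2.4.6 and matplotlib 3.10.9 under Python 3.11.15.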

Additional observations from a re-analysis of the deposited data

How the results depend on the processing

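The counts past 1.5-fold, the pooled ratio and the median of the 89 genes stayed close to their values with a pseudocount of 0.1 and with separate windows, and depended on scaling and on the peaks used, for causes that were not tested. Main values were -0.17 (pooled), -0.11 (median), 11 lower and 0 higher. Densities scaled to the same total gave -0.082, -0.027 and 1 higher. Median-of-ratios scaling gave -0.030, 0.025, 7 lower and 3 higher, and recovered reads at the same total -0.063, 0.0078 and 3 higher. Promoter peaks within 1 kb alone (33 genes) gave 0.015, 0.11, 2 lower and 1 higher (all genes 5.69% and 1.89%), so the pooled ratio changed sign. Peaks called in both libraries (47 genes) gave -0.11, -0.038, 2 lower and 1 higher (3.01% and 2.41%), and peaks at or above the median density (54 genes) 6 lower (5.61%). At a fold of 2, 3 genes were lower (0.839%). Of 300 values of named genes under the alternatives, 292 moved by less than their counting error, 8 moved by more and 0 called values changed sign. No paired analysis was possible because there was 1 library per condition. Single peaks of about 60.5 and 37 reads cannot resolve small differences.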

Other observations

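Distal intergenic peaks, which the table assigns to no gene, were matched to genes by the nearest start site. For 42 of the 89 genes there were 132 such peaks, with a median log2 ratio of -0.28, beside -0.18 for 19430 distal peaks of all genes. Of these, 29 (22.0%) were past 1.5-fold lower and 3 (2.27%) past it higher, where 17.3% and 4.02% of all distal peaks were. With 30 genes of these families that had distal peaks only, the median was -0.20 over 181 peaks, of which 34 (18.8%) were past 1.5-fold lower and 3 (1.66%) past it higher. All 8 distal peaks matched to Tnfrsf11b were below 0, where 66.3% of all distal peaks were. They lay up to 187040 bp from its start site. Their median was -0.68, with a range from -1.16 to -0.10. The peak at -12852 bp from the start site held 25.1 in SCR and 12.4 in siPiezo2 (-0.96). The 4 distal peaks of Csf1 were also all below 0, the strongest of them at -16032 bp with 71.8 in SCR and 34.1 in siPiezo2 (-1.05), so that with its 4 assigned peaks every Csf1 peak was below 0.

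The lowest of the 181 distal peaks nearest to genes of these families lay at -14041 bp from the start site of Tnfrsf1b. It held 44.2 in SCR and 16.5 in siPiezo2 (-1.37, interval -2.10 to -0.79), and the other distal peaks of that gene stood at -0.47 and 0.02. The 3 distal peaks of Osmr were all below 0, at -0.63, -0.61 and -0.20. Tnfsf18, the ligand of the costimulatory receptor GITR, had 12 distal peaks with a median of -0.57, from -1.20 to 0.52, although its assigned peak held 17.7 and 22.0 (0.30). Distal peaks of Tnfsf11 and Tnfsf15 lay on both sides of 0. The 11 of Tnfsf11 had a median of -0.23 (from -0.67 to 0.36) and the 8 of Tnfsf15 a median of -0.07 (from -0.86 to 0.61). Of the 4 distal peaks matched to Lifr, the one at -73106 bp held 17.8 and 31.4 (0.79). The one at -67643 bp held 27.9 and 12.4 (-1.11), the opposite direction within 1 intergenic region. The other peaks matched to Lifr stood at -0.28 and -0.0019.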
